A study of Homo sapiens with 18 samples.

Results

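Cells that had been patterned as posterior neural ectoderm (pNE) were carried from day 2 to day 4 in 2 different media, and the RNA of the cells in midbrain medium (pNE_M, 2 libraries) was compared with that of the cells in forebrain medium (pNE_T, 2 libraries). These 4 libraries were chosen by their column names from the 18 libraries of the series, which hold 9 groups of 2 biological replicates of H1, an established human pluripotent stem cell line. Both groups had passed through the same steps. On day 1 the cells received the TGF-beta receptor inhibitor A8301 at 1 µM, the MEK inhibitor trametinib at 250 nM, the porcupine inhibitor C59 at 1 µM and the BMP receptor inhibitor LDN193189 at 100 nM. On day 2 they received the growth factor FGF2 at 20 ng/mL together with 4 small molecules: A8301 at 1 µM, LDN193189 at 100 nM, XAV939 at 1 µM, a tankyrase inhibitor that lowers WNT signalling, and TTNPB at 50 nM, which activates retinoic acid receptors. The forebrain medium that followed held, as far as it is described here, XAV939 at 1 µM, LDN193189 at 100 nM and FGF2 at 20 ng/mL. The composition of the midbrain medium was not used here, so the agents by which the 2 media differ are not named. Both groups were plated at 150000 cells per cm2, were sampled at day 4 and come from 1 cell line. The pNE libraries of day 2, whose values are given beside them for some genes below, were plated at 37500 cells per cm2.

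The vertebrate neural plate is divided from front to back by opposing signals. Low WNT signalling keeps the front as forebrain, where SIX3 and PAX6 are expressed. WNT, FGF and retinoic acid push cells towards midbrain, hindbrain and spinal cord, and the caudal homeobox (CDX) genes and the HOX clusters are switched on in the order of the HOX genes along the chromosome. The midbrain and its border with the hindbrain, the isthmus, are marked by OTX2 on the front side, GBX2 on the rear side, and EN1, PAX2, PAX5, FGF8 and WNT1 at the border.

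Transcript levels were deposited as TPM, which is scaled for transcript length and for the total of each library. Of 37550 rows, 14449 genes reached 1 TPM in at least 2 of the 4 libraries and were tested with limma on log2(TPM + 1), in a fit of all 18 libraries with 9 residual degrees of freedom. A gene is called higher or lower where the Benjamini-Hochberg adjusted p was under 0.05 and the log2 difference (midbrain minus forebrain medium) was at least 1 in size, and every adjusted p below is from that limma fit. Log2 differences are given ± their standard error, and they understate the change of genes near 0 TPM. In all, 1457 genes (10.1%) were called, 560 higher (3.88%) and 897 lower (6.21%), and these shares are the background for every count below. A gene at 1 TPM or more in only 1 of the 2 groups passed the filter through that group alone and so had to differ in level; such calls are counted beside each list that holds them. For 67.9% of the genes tested, the TPM values of the 2 groups did not overlap. The 2 libraries of a group correlated at r = 0.985 in midbrain medium and r = 0.981 in forebrain medium across the genes tested, against 0.926 to 0.929 between media. In the 4 libraries, between 13984 and 14310 genes reached 1 TPM. Mitochondrial transcripts made up 2.04 and 1.80% of the TPM in midbrain medium and 2.31 and 3.04% in forebrain medium; their part in the results was not tested. The p-values rest on the spread between the libraries of a group, pooled over all 9 groups and moderated across genes, and not on the 4 compared libraries alone. An exact permutation of 2 against 2 libraries cannot go below a two-sided p of 0.333. In bulk RNA, fewer cells of a type and less RNA per cell cannot be told apart.

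**Figure D1:**
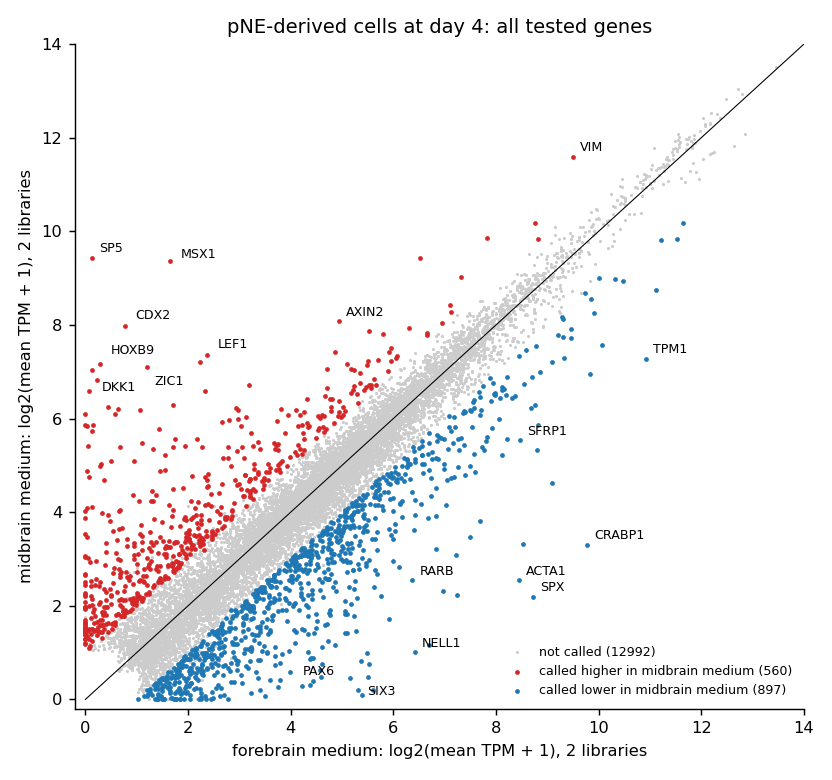
Each point is 1 of the 14449 genes tested, at log2(mean TPM + 1) of the 2 forebrain-medium libraries (horizontal) and the 2 midbrain-medium libraries (vertical); the line marks equal levels. The 560 genes called higher in midbrain medium (red) include SP5, MSX1 and CDX2 near 0 on the horizontal axis, and the 897 genes called lower (blue) include CRABP1 and SPX, which lie far below the line.

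Most targets and feedback genes of WNT signalling rose in midbrain medium. WNT ligands bind Frizzled receptors and stabilise beta-catenin, which acts with the TCF and LEF factors on genes such as AXIN2, and many of those targets in turn limit the pathway. Of the 15 genes in the list, all were tested, 13 were called higher and 1 lower; 5 of the 13 passed the filter only through midbrain medium. The median log2 difference was 3.15, against -0.04 over all genes tested. SP5, a transcription factor gene that WNT signalling activates directly, was measured at 756 and 625 TPM in midbrain medium and 0.0895 and 0.0967 TPM in forebrain medium. That is the largest rise of any gene tested (9.30 ± 0.39, adjusted p = 7.4e-10). The secreted WNT antagonist DKK1 was at 91.8 and 97.6 TPM in midbrain medium and at 0 and 0.112 TPM in forebrain medium (6.50 ± 0.16, adjusted p = 7.5e-12). AXIN2, a scaffold of the beta-catenin destruction complex and the most widely used target gene, was already present in forebrain medium, at 28 and 31.1 TPM, and stood at 272 and 268 TPM in midbrain medium (3.15 ± 0.10, adjusted p = 3.5e-11).

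The genes that carry the signal into the nucleus or damp it moved the same way. LEF1, which encodes a DNA-binding partner of beta-catenin, was at 159 and 164 TPM in midbrain medium and 3.32 and 4.95 TPM in forebrain medium (5.0 ± 0.21, adjusted p = 6.6e-10). Its relative TCF7 rose less, from 7.66 and 7.58 to 27.9 and 25.4 TPM (1.68 ± 0.16, adjusted p = 3e-06). Among the inhibitors, NKD1, which binds Dishevelled, rose from 4.49 and 2.86 to 156 and 139 TPM (5.01 ± 0.49), and NOTUM, an enzyme that strips WNT ligands of their lipid, rose from 0.301 and 0.132 to 33.4 and 28.1 TPM (4.71 ± 0.25). The 2 ubiquitin ligases that remove Frizzled receptors from the surface also rose: RNF43 by 3.51 and ZNRF3 by 1.49 on the log2 scale. APCDD1 and TNFRSF19 rose by 4.04 and 2.83, and LGR5, a receptor for R-spondins, reached 2.65 and 2.999 TPM from under 0.2 TPM. The cell cycle gene CCND1 was close to the threshold: its log2 difference was 1.08 ± 0.10, and 0.99 without the second midbrain-medium library, which is not called. NKD2 was not called (0.59 ± 0.35, adjusted p = 0.23). BAMBI went the other way: this pseudoreceptor that damps BMP and TGF-beta signalling was at 68.7 and 73.7 TPM in forebrain medium and 18.2 and 17.8 TPM in midbrain medium (-1.92 ± 0.13, adjusted p = 9.8e-08).

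The sequences just upstream of the start sites of SP5 and DKK1 are shown because these 2 genes were nearly silent in forebrain medium and hold the letters that TCF and LEF factors recognise (RefSeq, GRCh38.p14, plus strand; capitals mark CTTTGAA or CTTTGAT, or the same letters on the other strand). The SP5 stretch is chr2:170715177-170715336 and holds 3 such matches, and the DKK1 stretch is chr10:52314171-52314280 and holds 1.
SP5: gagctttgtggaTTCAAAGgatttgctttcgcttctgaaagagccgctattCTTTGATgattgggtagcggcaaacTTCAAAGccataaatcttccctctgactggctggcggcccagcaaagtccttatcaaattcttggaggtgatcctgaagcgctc
DKK1: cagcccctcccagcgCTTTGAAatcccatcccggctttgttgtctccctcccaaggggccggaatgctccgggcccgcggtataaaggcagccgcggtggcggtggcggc
Over the 250 bases before a start site, these letters occurred in 3.90% of the windows of tested genes, in 6.60% of those of genes called higher and in 4.38% of those of genes called lower. The table had windows for 10805 of the 14449 genes tested. A match describes the sequence and is no evidence of binding.

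WNT ligands, receptors and antagonists did not move in 1 direction. Of 16 ligand genes, 6 were tested, 2 were called higher, both passing the filter only through midbrain medium, and 1 lower. WNT6 was at 5.49 and 4.05 TPM in midbrain medium and 0.110 and 0.0594 TPM in forebrain medium (2.40 ± 0.27, adjusted p = 1.3e-05), and WNT11 reached 2.06 and 2.15 TPM. WNT2B was the most abundant ligand in forebrain medium, at 116 and 117 TPM, and fell to 36.1 and 31.7 TPM (-1.75 ± 0.19, adjusted p = 9e-06). WNT1 and WNT3A, ligands of the dorsal midline and the tail bud, were at or below 0.0945 TPM in all 4 libraries. Of the 22 receptor and antagonist genes, 21 were tested, 3 were called higher, DKK1 among them, and 6 lower; 2 of the 3 and 3 of the 6 passed the filter through 1 medium alone.

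The Frizzled receptors included large changes in both directions. FZD10 was at 76.3 and 70.1 TPM in midbrain medium and 0.737 and 0.371 TPM in forebrain medium (5.59 ± 0.18, adjusted p = 4.9e-11), and FZD9 rose from 2.18 and 1.62 to 7.47 and 7.76 TPM. FZD8, a receptor known from the anterior neural plate, was at 43.8 and 46.9 TPM in forebrain medium and 0.720 and 0.671 TPM in midbrain medium (-4.77 ± 0.16, adjusted p = 5.9e-11), and FZD5 fell from 17.95 and 13.7 to 1.73 and 1.83 TPM. The abundant receptors FZD2 and FZD7 were not called (-0.24 and -0.39). The 4 SFRP genes of the list, whose secreted products bind WNT ligands outside the cell, fell. SFRP1, the most abundant, was at 334 and 371 TPM in forebrain medium and 44.4 and 46.4 TPM in midbrain medium (-2.93 ± 0.07, adjusted p = 7.5e-12), SFRP2 was at 170.4 and 147 and 44.2 and 49.4 TPM, and SFRP5 at 10.02 and 8.05 and 0.587 and 0.419 TPM. Their relative FRZB did not pass the fold threshold (0.82 ± 0.13, adjusted p = 0.0002).

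**Figure D2:**
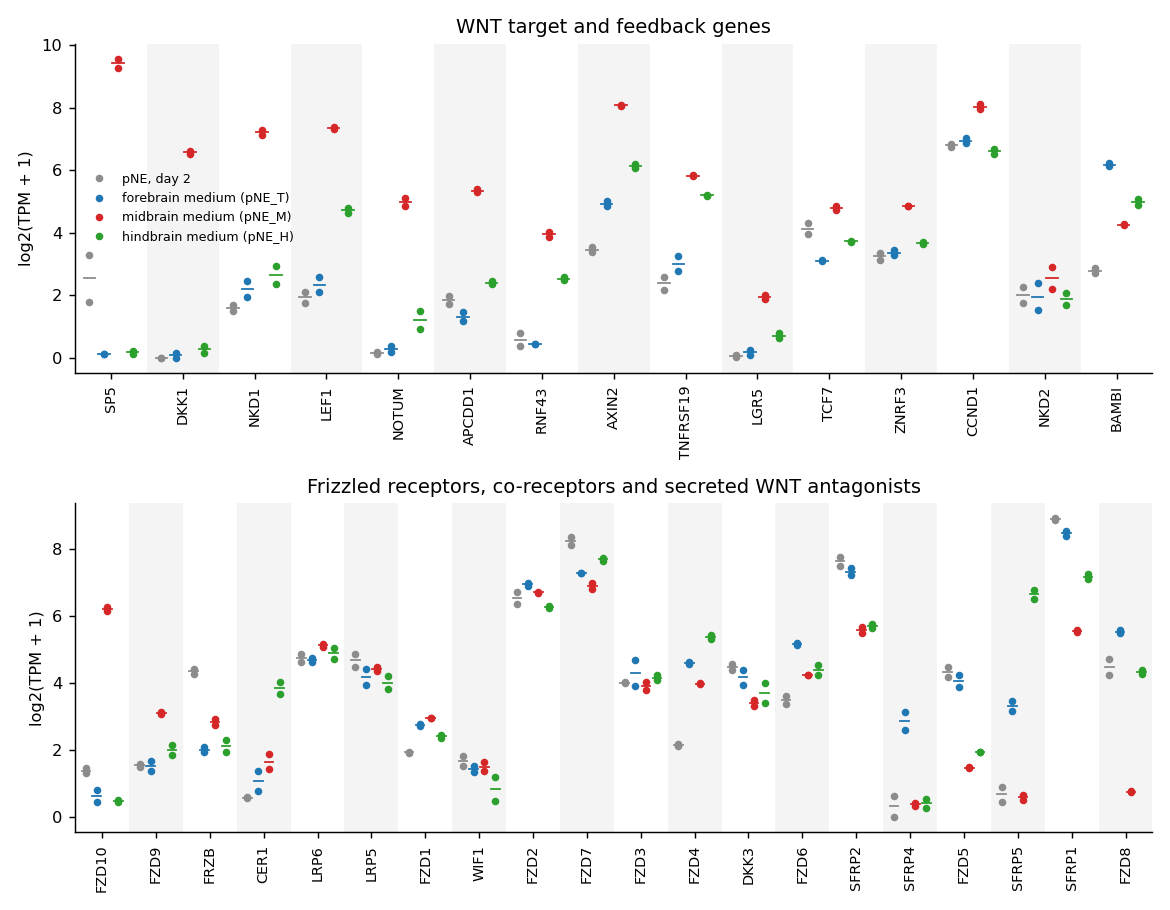
Log2(TPM + 1) in each of 2 libraries (points; bars are the mean) for WNT target and feedback genes (top) and for receptors and antagonists (bottom), ordered by the midbrain minus forebrain difference, in pNE at day 2 and in the 3 day-4 media. In the upper panel the midbrain-medium libraries (red) are the highest of the 4 groups for SP5, DKK1 and AXIN2 and are below the forebrain-medium libraries (blue) for BAMBI; in the lower panel FZD10 and FZD8 stand at opposite ends.

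CDX1, CDX2 and the middle HOX genes HOXB6, HOXB8, HOXB9 and HOXA7 were present in midbrain medium. These 6 genes were at or below 1.12 TPM in forebrain medium. CDX factors bind HOX genes directly and are needed for trunk HOX expression. CDX2 (chr13:27962137-27971139, GENCODE 29 on GRCh38) was at 247 and 252 TPM in midbrain medium and 0.274 and 1.12 TPM in forebrain medium (7.25 ± 0.25, adjusted p = 1.1e-10). CDX1 (chr5:150166795-150184558) was at 127 and 98.6 TPM and 0.212 and 0.114 TPM (6.60 ± 0.19, adjusted p = 2.5e-11), whereas CDX4 stayed under 1 TPM in all 4 libraries. Of the 13 caudal progenitor and presomitic genes, 8 were tested and 6 were called higher, 5 of which passed the low-value filter only through the midbrain-medium libraries, so that their count follows from their being tested. NKX1-2, a gene of the caudal neural plate, was at 20.1 and 12.6 TPM in midbrain medium and 0 and 0.175 TPM in forebrain medium (3.97 ± 0.20, adjusted p = 4.1e-09). TBXT, which marks neuromesodermal progenitors and the primitive streak, was at only 1.21 and 1.94 TPM and 0 and 0.0397 TPM. The presomitic genes TBX6 and MSGN1 were below 0.5 TPM in all 4 libraries, while the segmentation clock gene HES7 rose from 0.0560 and 0.226 to 4.36 and 4.504 TPM.

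The 12 HOX genes of paralogue groups 1 to 4, which pattern the hindbrain, were all tested, and 6 were called higher, 1 of which passed the filter only through midbrain medium. HOXB1 rose from 126 and 147 TPM in forebrain medium to 340.0 and 346 TPM in midbrain medium (1.33 ± 0.14, adjusted p = 5.1e-06) and HOXD1 from 40.3 and 31.9 to 95.8 and 97.9 TPM (1.41 ± 0.15). Group 2 and most of group 3 were level: HOXA2, HOXB2, HOXA3 and HOXD3 had log2 differences between -0.27 and 0.51 and were not called. HOXB3 was the exception in group 3, at 139 and 128 TPM in midbrain medium and 32.2 and 38.2 TPM in forebrain medium (1.89 ± 0.15, adjusted p = 4.7e-07). Group 4 differed most, with HOXC4 at 35.5 and 30.6 TPM and 1.38 and 0.479 TPM (4.18 ± 0.23, adjusted p = 8.7e-09) and HOXB4 at 31.8 and 26.1 TPM and 2.296 and 1.59 TPM (3.35 ± 0.20, adjusted p = 2e-08). HOXD4 was not called, and its 2 forebrain-medium libraries, at 16.7 and 6.97 TPM, lay on either side of the midbrain-medium ones at 14.98 and 12 TPM.

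Of the 27 HOX genes of groups 5 to 13, 10 were tested and all 10 were called higher. Of these, 8 passed the filter only through the midbrain-medium libraries and so had to differ, and the other 17 stayed below it. The highest were in the HOXB cluster on chromosome 17. HOXB9 (chr17:48621159-48626356) was at 153 and 130.4 TPM in midbrain medium and 0.137 and 0.297 TPM in forebrain medium (6.87 ± 0.17, adjusted p = 7.5e-12). HOXB6 (chr17:48595751-48604992) was at 138 and 121 TPM and 0.113 and 0.0612 TPM (6.91 ± 0.17, adjusted p = 7.5e-12). HOXB8 was at 61.99 and 50.3 TPM and 0 and 0.0451 TPM, and HOXA7, the highest of the HOXA genes beyond group 5, at 31.97 and 24.8 TPM and 0.0456 and 0 TPM. The annotated spans of HOXB3 to HOXB6 overlap on 1 strand, as do those of HOXB7, HOXB8 and HOXB9 and of HOXC4, HOXC5 and HOXC6, so shared transcripts may have been split between neighbours.

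The levels differed between the clusters. In HOXC, the levels in midbrain medium declined from HOXC4 to HOXC5 (3.68 and 2.81 TPM), HOXC6 (1.6 and 1.03 TPM) and HOXC8 (1.09 and 0.697 TPM), and all 4 were at or below 1.38 TPM in forebrain medium. In HOXD, no gene beyond HOXD4 passed the filter. HOXA9 was at 0.217 and 0.0418 TPM in midbrain medium, and no gene of groups 10 to 13 reached 1 TPM in any of the 4 libraries. HOXA5 was the weakest of the 10 calls: it was at 18.04 and 13.1 TPM in midbrain medium and 4.73 and 7.74 TPM in forebrain medium (1.21 ± 0.21, adjusted p = 0.00056). Without the first forebrain-medium library its difference was 0.91, and without the first midbrain-medium library 1.00, just under the threshold, so neither was called.

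At day 2 the starting pNE held none of this trunk code: HOXB9 was at 0.0429 and 0 TPM, CDX2 at 0.158 and 0.0490 TPM and CDX1 at 0.0989 and 0 TPM. In hindbrain medium (pNE_H, 2 libraries), HOXB9 was at 0.0788 and 0.173 TPM and CDX2 at 3.34 and 4.39 TPM. HOXB1 and HOXB2 were at 15.2 and 19.5 and 10.5 and 11.7 TPM at day 2, below their levels in each of the 3 day-4 media. These values are side by side without a test, since further comparisons would share libraries with the one described.

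**Figure D3:**
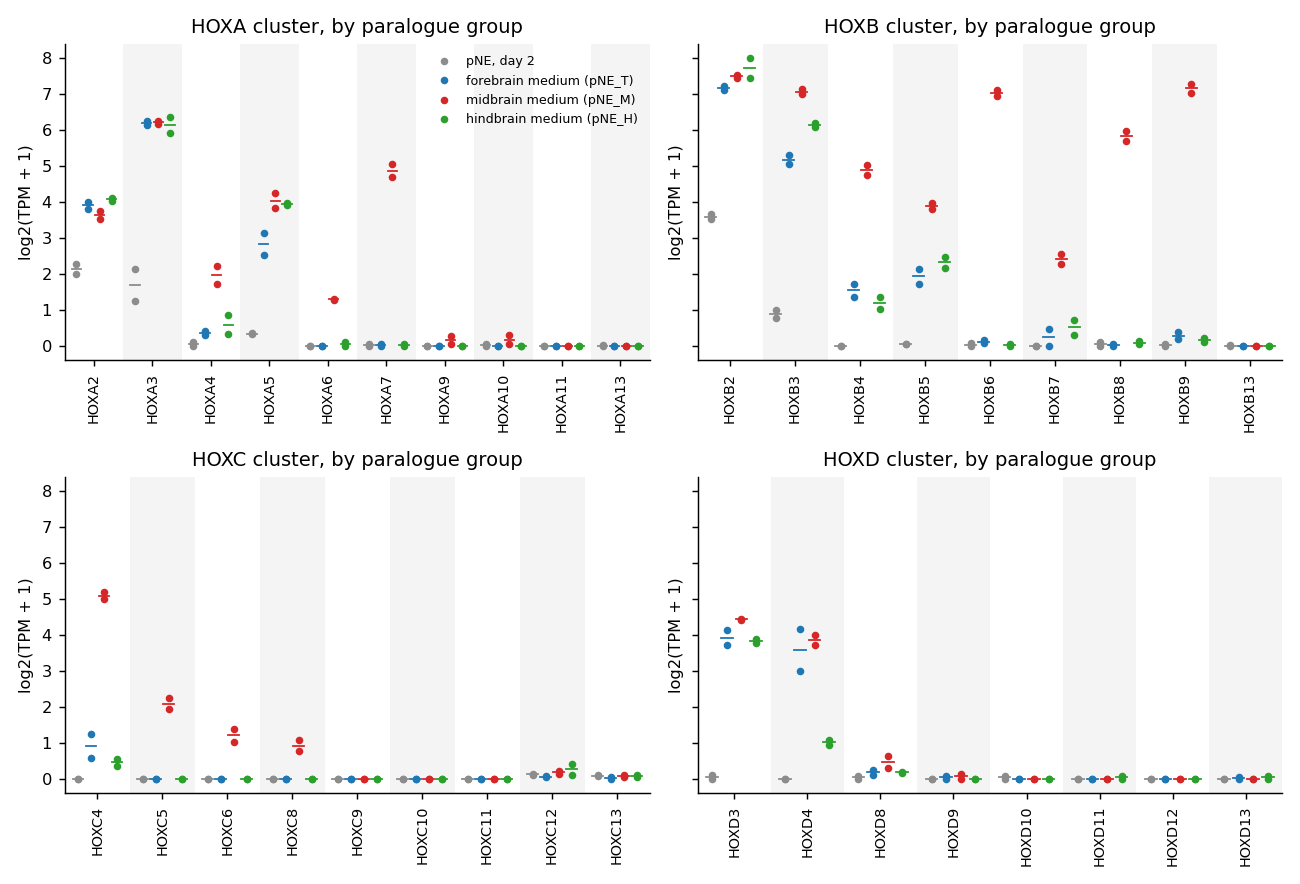
Log2(TPM + 1) of the genes of paralogue groups 2 to 13 in the 4 HOX clusters in each of 2 libraries per group (points; bars are the mean), ordered by paralogue group. Genes of groups 2 and 3 are expressed in all 3 day-4 media, while HOXB6, HOXB8, HOXB9 and HOXA7 are near 0 in all groups but midbrain medium (red).

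The cofactors that HOX proteins bind DNA with did not follow the HOX genes. Of 9 MEIS, PBX and PKNOX genes, all tested, 4 were called lower and none higher (background 3.88% higher and 6.21% lower). MEIS3 was at 212 and 221 TPM in forebrain medium and 35.2 and 43.2 TPM in midbrain medium (-2.45 ± 0.10, adjusted p = 7.6e-10). PBX3 fell from 39.04 and 45.2 to 9.599 and 12.8 TPM. MEIS1, called at -1.17, was at -0.90 and not called without the first midbrain-medium library.

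Transcription factors of the forebrain and eye field were at low levels or fell. Of 17 genes, 9 were tested, 5 were called lower and none higher; 3 of the 5 passed the filter only through forebrain medium. The median of the tested genes was -1.81, and -0.61 over the list with no filter on low values. SIX3, which represses WNT genes in the anterior neural plate, was at 38 and 39.8 TPM in forebrain medium and 0.129 and 0.184 TPM in midbrain medium (-5.11 ± 0.15, adjusted p = 2.5e-11). PAX6, a factor of the eye and of forebrain and spinal cord progenitors, was at 40.96 and 28.3 TPM and 0.508 and 0.232 TPM (-4.68 ± 0.21, adjusted p = 1.3e-09). FEZF2, VAX1 and VAX2 were the other 3, at log2 differences of -2.94, -1.81 and -1.89. The eye field gene RAX was at or below 0.193 TPM, and NKX2-1, a gene of the ventral forebrain, was listed at 0 in all 4 libraries. SIX3 and PAX6 were present in forebrain medium alongside the hindbrain gene HOXB2 at 147 and 138 TPM.

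The defining markers of the midbrain were absent or low in midbrain medium. EN1, an engrailed gene of the midbrain and isthmus, was listed at 0 in all 4 libraries, and EN2, PAX8, WNT1, CNPY1, LMX1A and DMBX1 did not exceed 0.124 TPM in any of them. OTX2, which defines the forebrain and midbrain, was at 4.297 and 5.38 TPM in midbrain medium and 0.988 and 0.634 TPM in forebrain medium (1.69 ± 0.14, adjusted p = 7.2e-07), and had been at 28.3 and 26.6 TPM at day 2. GBX2, its counterpart in the anterior hindbrain, was at 38.4 and 33.9 TPM in forebrain medium and 5.22 and 6.44 TPM in midbrain medium (-2.44 ± 0.19, adjusted p = 4.3e-07). Of 14 midbrain and isthmus genes, 5 were tested and 3 were called higher, 2 of them (PAX2 and FGF17) passing the filter only through midbrain medium. PAX2 was at 33.02 and 33.1 TPM and 0.446 and 0.394 TPM (4.58 ± 0.18, adjusted p = 4.3e-10). FGF17, an FGF8-related ligand that is also expressed in the tail bud, was at 28.7 and 23.2 TPM and 0.111 and 0 TPM (4.67 ± 0.18, adjusted p = 3.8e-10). LMX1B rose from 1.51 and 1.71 to 5.57 and 6.22 TPM, and FGF8 was not called, at 0.390 and 0.0899 TPM and 1.19 and 1.71 TPM. Because EN1 is listed at 0 and OTX2 is low, the cells are named here by their medium and not as midbrain cells.

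Outside the HOX clusters, most hindbrain segmentation genes were not called. Of 13 genes, 11 were tested, 2 were called lower, 1 of which passed the filter only through forebrain medium, and none higher. IRX3 fell from 29.3 and 28.7 TPM in forebrain medium to 9.27 and 9.73 TPM in midbrain medium. EGR2, a rhombomere gene, was not called (-0.15).

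More genes of the retinoid list were called lower than higher in midbrain medium. Both groups had received the retinoid agonist on day 2. Of 19 retinoid genes, 15 were tested, 3 were called higher and 6 lower. CRABP1, which binds retinoic acid in the cytoplasm, was at 864 and 872 TPM in forebrain medium and 8.69 and 9.09 TPM in midbrain medium (-6.46 ± 0.06, adjusted p = 3e-16). The 2 groups are far apart, and the 2 midbrain-medium libraries are within 1 TPM of each other. RARB, a retinoic acid receptor gene that is also a direct target, was at 77.8 and 85.2 TPM and 4.48 and 5.16 TPM (-3.83 ± 0.15, adjusted p = 5.1e-10). DHRS3, an enzyme that turns retinaldehyde back to retinol, fell from 119.7 and 138 to 16.6 and 16.96 TPM (-2.86 ± 0.13), and the breakdown enzyme CYP26B1 from 5.93 and 7.17 to 1.26 and 1.301 TPM (-1.72 ± 0.22). The nuclear receptor genes NR2F1 and NR2F2 fell by 2.44 and 1.73 on the log2 scale.

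Not all retinoid genes moved that way. RARG was at 77.6 and 70.9 TPM in midbrain medium and 6.04 and 7.35 TPM in forebrain medium (3.29 ± 0.17, adjusted p = 4.5e-09). STRA6, the membrane receptor for retinol-binding protein, rose from 85.5 and 96.1 to 635 and 738 TPM (2.90 ± 0.12), and RDH10, which makes retinaldehyde, from 9.64 and 7.98 to 27.3 and 35.7 TPM (1.72 ± 0.23). The main breakdown enzyme of the early embryo, CYP26A1, was not called, at 35.3 and 27.1 TPM and 29.8 and 28.7 TPM, down in both media from 352 and 348 TPM at day 2. CRABP2 was the most abundant gene of the list in all 4 libraries, at 6949 and 7519 TPM in midbrain medium and 6064 and 5372 TPM in forebrain medium, and was not called (0.34 ± 0.09). The promoter of RARB is shown because it holds the DR5 retinoic acid response element (RefSeq, GRCh38.p14, plus strand, chr3:25428193-25428262; 1 of 4 RARB windows; capitals mark the match).
RARB: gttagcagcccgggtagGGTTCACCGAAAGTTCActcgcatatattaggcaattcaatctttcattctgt
The DR5 letters, searched on both strands, occurred in 0.0626% of the windows of tested genes, in 1 window (0.0876%) of the genes called lower and in none of those called higher.

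Most genes tested of the dorsal neural tube list rose. Of 12, 10 were tested, 8 were called higher and none lower, with a median of 3.24; 4 of the 8 passed the filter only through midbrain medium. MSX1, a homeobox gene of the roof plate, the neural plate border and the tail end of the embryo, was at 666 and 646 TPM in midbrain medium and 1.72 and 2.55 TPM in forebrain medium (7.72 ± 0.20, adjusted p = 9.3e-12), the second largest rise among the named genes. MSX2 rose from 2.65 and 1.92 to 71.2 and 82.7 TPM (4.57 ± 0.18). PAX3, which marks dorsal progenitors, was at 43.01 and 38.9 TPM and 0.708 and 0.470 TPM (4.73 ± 0.22), and its relative PAX7 at 6.55 and 6.92 TPM and 0.120 and 0.180 TPM (2.75 ± 0.17). The zinc finger genes of the ZIC family split. ZIC1 was at 148 and 123 TPM and 1.05 and 1.56 TPM (5.89 ± 0.30, adjusted p = 4.5e-09). ZIC2 and ZIC5 were abundant in both media and were not called (-0.56 and -0.59). ZIC4 rose with ZIC1, whose span it overlaps on the other strand; whether the counting used strand is not given in the sources used here. ATOH1 did not exceed 0.0325 TPM, and GDF7 was not tested.

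Markers of the neural crest, which arises at the dorsal border, moved in both directions. Of 14 genes, 12 were tested, 7 were called higher and 2 lower; 3 of the 7 (SOX10, FOXD3 and PAX3) passed the filter only through midbrain medium. PAX3 and MSX1 are in the dorsal list too. FOXD3, a crest specifier, was at 20.2 and 11.6 TPM in midbrain medium and 0.0346 and 0 TPM in forebrain medium (4.01 ± 0.23, adjusted p = 1.5e-08). SOX8 rose from 3.23 and 3.74 to 46.9 and 46.2 TPM, SOX9 from 16.4 and 18.8 to 55.2 and 58.5 TPM, and SOX10 from 0.394 and 0.809 to 5.35 and 5.43 TPM. TFAP2A and TFAP2B, which define the crest and the surface ectoderm, were not tested, at 0.434 and 1.39 TPM and 0.585 and 0.194 TPM in midbrain medium. NGFR fell from 62.8 and 62.7 to 9.32 and 10.1 TPM and ETS1 from 10.5 and 10.8 to 0.835 and 1.18 TPM. The summed level of the list was 884 and 852 TPM in midbrain medium and 121 and 126 TPM in forebrain medium, most of it MSX1 in the former. The part of crest cells in the dorsal result was not tested.

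Signals that pattern the neural tube from above and below changed gene by gene. Of 16 BMP ligand, antagonist and target genes, 5 were called higher, of which BMP5 passed the filter only through midbrain medium, and 1 lower. BMP4 was at 133 and 132 TPM in midbrain medium and 22.3 and 27.7 TPM in forebrain medium (2.37 ± 0.20, adjusted p = 7.9e-07), BMP5 at 7.32 and 8.46 and 0.363 and 0.278 TPM, and BMP7 fell from 161 and 168 to 46.96 and 38.2 TPM. The BMP antagonists NOG and GREM1 rose as well, NOG from 4.65 and 5.97 to 58.5 and 60.8 TPM and GREM1 from 14.6 and 14.1 to 64.96 and 67.3 TPM. Among the ID genes, which BMP signalling induces, ID3 rose from 232 and 217 to 881 and 961 TPM (2.03 ± 0.09), whereas ID1, ID2 and ID4 were not called (-0.22, -0.90 and -0.86). Of 14 hedgehog and ventral genes, 8 were tested, 3 were called higher and 2 lower; NKX6-1 passed the filter only through midbrain medium, and SHH and FOXA2 only through forebrain medium. SHH, the ventral signal, was at 2.01 and 2.39 TPM in forebrain medium and 0.0144 and 0.0340 TPM in midbrain medium (-1.64 ± 0.26), and the floor plate gene FOXA2 at 4.36 and 6.01 TPM and 0.0890 and 0 TPM (-2.55 ± 0.21). HHIP, an inhibitor that hedgehog signalling induces, rose from 6.05 and 5.64 to 34.6 and 34.3 TPM (2.37 ± 0.25), while PTCH1 and GLI1 were not called (0.57 and 0.96). NKX6-1 rose from 0.0741 and 0.241 to 5.0 and 4.95 TPM.

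FGF ligands and receptors were divided. Of the 20 names in the list, 19 had a row, 13 were tested, 3 were called higher and 3 lower. FGF17 and FGF19 passed the filter only through midbrain medium. FGF19 was at 8.63 and 10.6 TPM in midbrain medium and 0.770 and 0.277 TPM in forebrain medium (2.81 ± 0.20), and FGF17 is given above. FGFR3 fell from 35.9 and 35.7 to 8.96 and 7.73 TPM (-1.98 ± 0.18) and the decoy receptor FGFRL1 from 54.9 and 53.04 to 16.02 and 17.1 TPM. FGFR1, the most abundant receptor of the family, was just short of the threshold (-0.97 ± 0.09). The third call in the higher direction, FGF12, was lost without the first forebrain-medium library (adjusted p = 0.075 there). The genes that FGF signalling switches on through ERK were mostly level. Of 17, 3 were called higher and 1 lower: SPRY4 rose from 13.01 and 13.2 to 71.8 and 73.9 TPM (2.39 ± 0.10), ETV4 from 41.4 and 47.1 to 146 and 154 TPM and IL17RD from 58.04 and 60.5 to 165 and 177 TPM. DUSP6 and SPRY1 were not called (-0.15 and -0.13).

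Neural progenitor genes moved in both directions. Of 16, 15 were tested, 2 were called higher and 5 lower. VIM, an intermediate filament gene of progenitors and of mesenchymal cells, was at 3008 and 3168 TPM in midbrain medium and 702 and 739 TPM in forebrain medium (2.10 ± 0.09, adjusted p = 1.2e-09). NES, the other filament gene of progenitors, fell from 608 and 649 to 213 and 213 TPM (-1.56 ± 0.09). Of the 6 SOX genes in the list, 3 were called lower and 3 were not called. SOX21, a relative of SOX2 that passed the filter only through forebrain medium, was at 46.7 and 42.5 TPM and 0.167 and 0.619 TPM (-5.05 ± 0.20, adjusted p = 3.7e-10), and SOX3 at 40.2 and 33.4 TPM and 2.72 and 2.15 TPM (-3.46 ± 0.19). SOX2 was still at 127 and 103 TPM in midbrain medium, against 239 and 234 TPM; its difference of -1.04 was called, but was -0.89 without the second midbrain-medium library. POU3F1 fell from 46.4 and 54.8 to 5.05 and 5.77 TPM and FABP7, a radial glia gene, rose from 5.79 and 5.07 to 42.9 and 26 TPM. Of 21 proneural and early neuron genes, 7 were tested and 2 were called, both higher: NEUROG2 rose from 1.41 and 1.78 to 24.8 and 14.2 TPM (2.93 ± 0.25) and TUBB3 from 43.9 and 46.8 to 243 and 226 TPM (2.35 ± 0.10). Neuronal genes such as DCX and STMN2 were below 1 TPM in all 4 libraries.

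Notch pathway genes showed 3 calls higher and 2 lower of 17 tested. HES6 rose from 16.7 and 17.5 to 64.7 and 68.6 TPM (1.90 ± 0.16) and DLL3 from 1.22 and 0.946 to 6.26 and 3.37 TPM, while NOTCH2 fell from 94.1 and 97.03 to 32.2 and 30.8 TPM (-1.57 ± 0.12). HES1 was not called (-0.68 ± 0.10).

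Markers of cell types other than neural ectoderm were read from 3 further lists. Of 18 surface ectoderm and placode genes, 15 were tested, 5 were called lower and none higher; 3 of the 5 passed the filter only through forebrain medium. GATA3 was at 6.899 and 7.74 TPM in forebrain medium and 0.319 and 0.239 TPM in midbrain medium (-2.70 ± 0.22) and DLX5 at 26.6 and 29.1 and 8.26 and 7.09 TPM, whereas TP63 did not exceed 0.113 TPM. The summed level of this list went the other way. It was 2291 and 2350 TPM in midbrain medium and 1491 and 1628 TPM in forebrain medium. By sign alone, 3 of its tested genes were higher and 12 lower in midbrain medium. Of 16 mesoderm and endoderm genes, 9 were tested, 3 were called higher and 1 lower, and each of these 4 calls passed the filter through 1 medium alone. MIXL1, a primitive streak gene, was at 12.2 and 10.9 TPM in midbrain medium and 0.190 and 0.939 TPM in forebrain medium (3.04 ± 0.26), and HAND1 was at 5.34 and 5.36 TPM and listed at 0 in both forebrain-medium libraries. EOMES and SOX17 were below 0.4 TPM in all 4 libraries. The summed level of that list was 53.1 and 55.2 TPM in midbrain medium and 42.9 and 38.6 TPM in forebrain medium; its part in the caudal result was not tested. Of 12 pluripotency genes, 6 were tested and 2 rose, the first passing the filter only through midbrain medium: ZFP42 from 0.907 and 0.879 to 20.4 and 18.9 TPM (3.45 ± 0.10) and L1TD1 from 4.198 and 4.17 to 22.7 and 22.01 TPM (2.17 ± 0.10). POU5F1, the core factor of the pluripotent state, was at 4.17 and 5.31 TPM and 3.63 and 7.28 TPM and was not called, and NANOG did not exceed 0.123 TPM.

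Genes of the contractile actin cytoskeleton were lower in midbrain medium. The 20 genes were chosen after their values had been seen, so their counts describe and support nothing: 13 were called lower, none higher, and the median was -1.29. ACTA1, skeletal muscle actin (chr1:229431245-229434098), was at 342 and 355 TPM in forebrain medium and 5.03 and 4.63 TPM in midbrain medium (-5.91 ± 0.11, adjusted p = 3.8e-13). ACTC1, cardiac actin, fell from 213 and 196 to 13.1 and 12.8 TPM (-3.88 ± 0.12); the coding sequences of the actin genes are very alike, and reads may have been divided between them. TPM1, a tropomyosin, was among the most abundant genes that fell, from 1886 and 1964 to 158 and 151 TPM (-3.63 ± 0.06, adjusted p = 9.8e-14). TAGLN, an actin-bundling protein of smooth muscle, fell from 2300.5 and 2158 to 421 and 441 TPM (-2.37 ± 0.08), CNN1 from 298 and 258 to 35.3 and 37.4 TPM, and the myosin light chain MYL9 from 994 and 1151 to 194 and 183 TPM. The general actins did not pass the fold threshold, ACTB with -0.82 and ACTG1 with -0.52. At day 2, ACTA1 had been at 11.2 and 11.7 TPM and TAGLN at 273 and 275 TPM, and in hindbrain medium they were at 13.4 and 12.02 and 568 and 654 TPM. The day-2 libraries were plated at 37500 cells per cm2, so day and plating density cannot be told apart in that contrast.

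Genes in wide use as targets of YAP and TEAD, which respond to cell shape and density, fell alongside. They too were chosen after their values had been seen: of 15, 9 were called lower and 1 higher. ANKRD1 was at 375 and 359 TPM in forebrain medium and 10.6 and 7.35 TPM in midbrain medium (-5.23 ± 0.21, adjusted p = 3.8e-10). The matricellular genes CCN1 and CCN2 fell from 191 and 189.9 to 28.7 and 26.9 TPM (-2.73 ± 0.14) and from 411 and 409.8 to 71.2 and 75.8 TPM (-2.47 ± 0.10). AMOTL2 and LATS2 were not called (-0.58 and -0.64). Plating density was the same in both groups, and the density reached at day 4 is not known here.

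The upstream stretches of ACTA1 and CCN2 are shown because these genes fell and hold matches to the CArG box, which serum response factor binds, and to CATTCC, which TEAD factors bind (RefSeq, GRCh38.p14, minus strand; capitals mark the matches on either strand, which did not overlap). The ACTA1 stretch is chr1:229434095-229434204 with 1 CArG and 2 CATTCC matches, and the CCN2 stretch is chr6:131951373-131951552 with 3 CATTCC matches.
ACTA1: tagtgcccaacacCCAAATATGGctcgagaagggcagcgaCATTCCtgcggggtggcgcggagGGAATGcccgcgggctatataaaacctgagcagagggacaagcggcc
CCN2: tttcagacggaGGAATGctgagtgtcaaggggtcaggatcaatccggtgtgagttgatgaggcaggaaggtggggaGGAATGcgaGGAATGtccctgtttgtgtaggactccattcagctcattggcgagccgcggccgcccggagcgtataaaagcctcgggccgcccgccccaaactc
A CArG box occurred in 3.42% of the windows of genes called lower, 0.891% of those called higher and 1.14% of those of tested genes. CATTCC occurred in 12.3%, 8.91% and 9.93% of them.

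Among the 15 largest rises and 15 largest falls, several genes belonged to none of the lists. URAD, whose gene (chr13:27977714-27988654) neighbours CDX2 on chromosome 13, was at 72.6 and 63.1 TPM in midbrain medium and listed at 0 in both forebrain-medium libraries (6.10 ± 0.20). HAS2, the enzyme that makes hyaluronan, was at 58.8 and 55.7 TPM and 0.0997 and 0.130 TPM (5.71 ± 0.17, adjusted p = 3.1e-11). TMEM132C rose from 0.435 and 0.280 to 75.4 and 74.3 TPM, C11orf87 from 0.127 and 0.0460 to 52.2 and 51.6 TPM, and LY6G6D from 0 to 58.7 and 56.2 TPM, though its span overlaps a read-through gene on the same strand.

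The falls outside the lists included several secreted and signalling proteins. SPX, which encodes the peptide hormone spexin, had the largest fall, from 407 and 438 TPM in forebrain medium to 2.71 and 4.43 TPM in midbrain medium (-6.56 ± 0.24, adjusted p = 2.2e-10). GFRA1, the co-receptor for GDNF, fell from 105 and 101 to 1.28 and 1.19 TPM (-5.53 ± 0.14), and CALB2, the calcium-binding protein calretinin, from 47.2 and 47.5 to 0.288 and 0 TPM (-5.41 ± 0.21). CHGA, chromogranin A of secretory granules, fell from 138 and 163 to 3.65 and 3.76 TPM (-5.01 ± 0.13). NELL1, a secreted protein, was at 79.5 and 89.9 TPM and 0.922 and 1.103 TPM (-5.41 ± 0.17), and PROC, protein C of the clotting system, at 34.7 and 46.7 and 0.123 and 0 TPM. IFFO2 and CLSTN2 fell by 4.65 and 4.54 on the log2 scale.

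Cell cycle and cholesterol synthesis genes were mostly not called. Of 20 cell cycle genes, all tested, 1 (CCND1) was called, and the median was 0.08. None of 15 cholesterol synthesis genes was called by limma: their log2 differences lay between -0.25 and 0.59. Of 17 glycolysis and hypoxia genes tested, 2 were called higher and 3 lower, or 5 in all against a background of 10.1%: LDHA and SLC2A3 rose by 1.26 and 1.69, while ADM, VEGFA and PFKP fell by 2.15, 1.36 and 1.27 on the log2 scale. Axon guidance and Eph-ephrin genes had 4 calls higher, 1 of which passed the filter only through midbrain medium, and 7 lower of 27 tested. SEMA6A, a transmembrane semaphorin, fell from 150.0 and 154 to 31.03 and 29.9 TPM (-2.28 ± 0.09) and UNC5D, a netrin receptor, from 24.3 and 22.7 to 4.34 and 5.09 TPM, whereas PLXNA2 rose from 38.9 and 37.9 to 96.2 and 86.2 TPM.

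**Figure D4:**
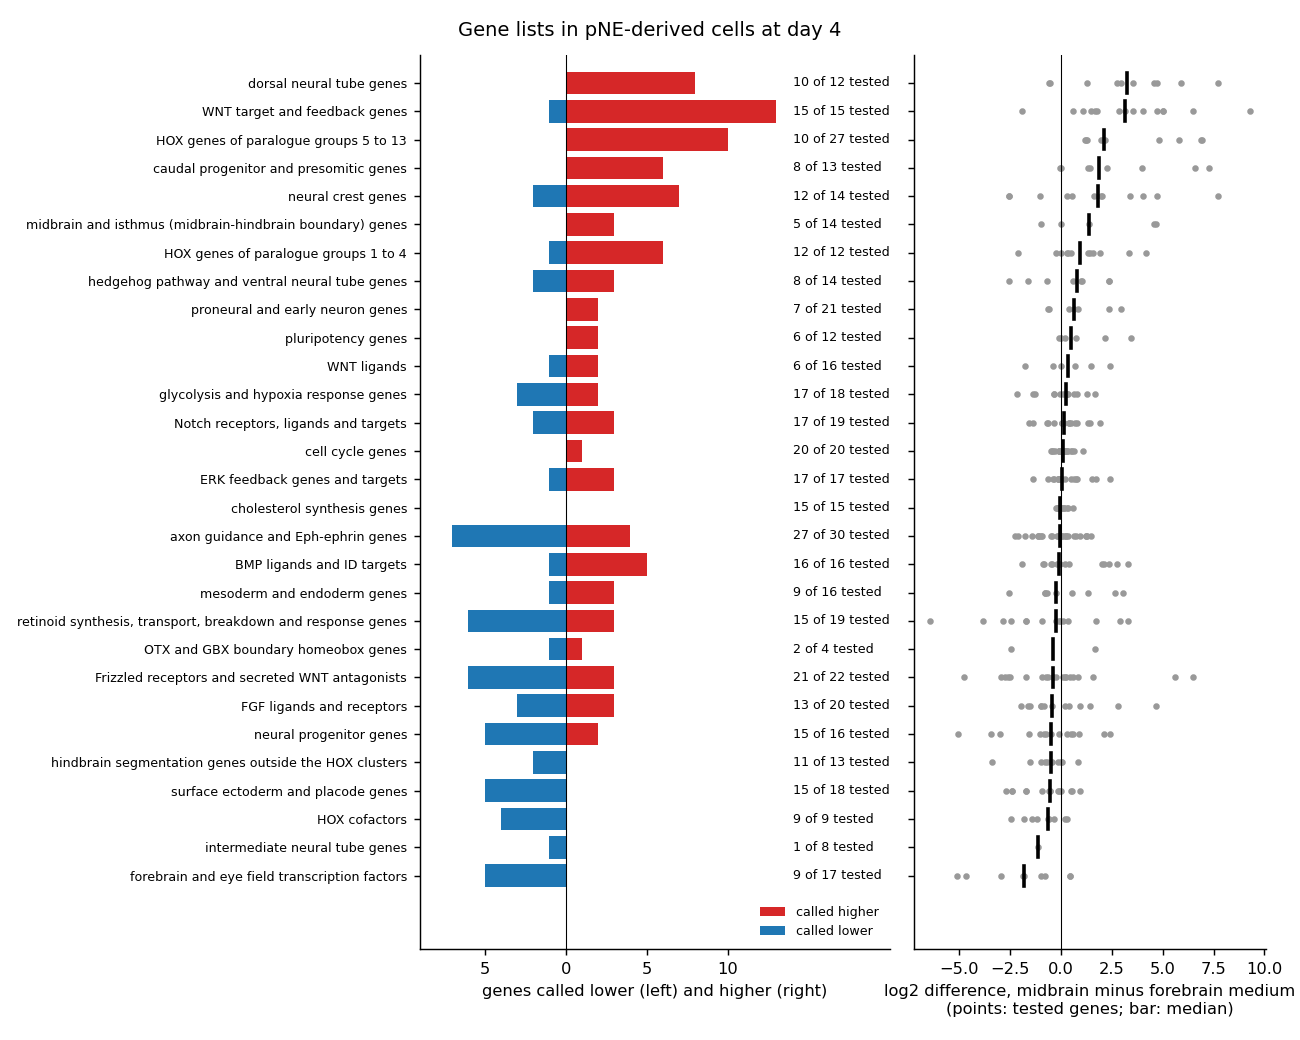
Left, the number of genes called lower (blue) and higher (red) in midbrain medium for each list, with how many of its genes were tested. Right, the log2 difference of every tested gene (points) and the median of the list (bar): the medians were 3.24 for the dorsal, 3.15 for the WNT target and -1.81 for the forebrain list at the filter used, and their order depends on it: over the alternatives the dorsal median lay between 2.15 and 4.90, the WNT target median between 2.34 and 3.74 and the forebrain median between -2.94 and -0.61.

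The same 2 media had been given to anterior neural ectoderm (aNE, 2 libraries each of aNE_M and aNE_T), which shares no library with the 4 compared. Those cells had C59 in place of TTNPB, FGF2 and XAV939 on day 2 and were plated at 75000 cells per cm2, so origin and plating density changed together. In aNE, 1707 of 14485 genes tested were called (11.8%), 592 higher (4.09%) and 1115 lower (7.70%). The genes called higher in both origins numbered 214, which is 38.2% of those in pNE and 36.1% of those in aNE, and 22 genes called higher in pNE were called lower in aNE. The genes called lower in both numbered 424, or 47.3% and 38.0% of the lists, with 19 in opposite directions. An interaction term, which tests whether the medium difference itself differed by origin, was fitted for 15510 genes, of which 1295 were called (8.35%): 710 had the more positive difference in pNE (4.58%) and 585 in aNE (3.77%).

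For the WNT target SP5 and the dorsal gene MSX1, a difference between the origins was not shown. SP5 was at 706 and 473 TPM in aNE_M and 0.0243 and 0 TPM in aNE_T, and the interaction was 0.14 ± 0.56 (adjusted p = 0.92). MSX1 was at 279.8 and 243 TPM and 0.393 and 1.13 TPM, with an interaction of 0.48 ± 0.29 (adjusted p = 0.34). MSX1 does not stand for the dorsal list, in which 6 of 10 genes tested had a called interaction. The difference was the more positive in pNE for 5 of those and in aNE for 1. The median log2 difference of the dorsal list was 3.24 in pNE (10 genes tested) and -0.09 in aNE (9 genes tested). Of the 15 listed WNT targets, 6 had a called interaction, against 8.35% of all genes tested. The difference was the more positive in aNE for 4 of them and in pNE for 2. The 4 are named next and were chosen after their values were seen, and the 2 are not named here. AXIN2, DKK1 and APCDD1 rose more in aNE. AXIN2 reached 315 and 312 TPM there from 7.798 and 9.09 TPM (interaction -1.91 ± 0.14, adjusted p = 6e-07). DKK1 reached 387 and 459 TPM from 0 (interaction -2.22 ± 0.23, adjusted p = 1.7e-05) and APCDD1 337 and 373 TPM from 2.87 and 1.38 TPM (interaction -2.84 ± 0.34, adjusted p = 5.6e-05). BAMBI, which fell in pNE, rose in aNE from 0.971 and 0.922 to 4.92 and 5.28 TPM (interaction -3.57 ± 0.18, adjusted p = 3.6e-08).

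Caudal, dorsal and isthmus genes were among the 6 largest interactions in each direction. HOXB6 and HOXB9 did not exceed 0.146 TPM in any aNE library of these media (interactions 6.93 ± 0.25 and 6.69 ± 0.25), and CDX2 was at 1.76 and 1.67 TPM in aNE_M (6.27 ± 0.36, adjusted p = 8.1e-08). ZIC1 was at 29.4 and 39.5 TPM in aNE_M and 80.01 and 73.9 TPM in aNE_T, against 148 and 123 and 1.05 and 1.56 TPM in pNE (interaction 7.04 ± 0.43, adjusted p = 1.4e-07). SST, the somatostatin gene, was at 70.8 and 64.4 TPM in pNE_M and 0.743 and 0.258 TPM in pNE_T but 1.62 and 2.05 TPM in aNE_M and 2.404 and 2.94 TPM in aNE_T (interaction 5.91 ± 0.27, adjusted p = 1.5e-08). EN1, listed at 0 in pNE, was at 141 and 128 TPM in aNE_M and listed at 0 in aNE_T (interaction -7.08 ± 0.24, adjusted p = 1.6e-09). At least HOXB6, HOXB9 and EN1 passed the filter through 1 group alone, so their interactions follow from their being tested. PAX5 was at 68.6 and 74.7 TPM in aNE_M and 0.198 and 0.749 TPM in pNE_M (interaction -5.61 ± 0.49, adjusted p = 3.7e-06). In both origins PAX2 rose, by 4.58 in pNE and 5.29 ± 0.18 in aNE.

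The remaining large interactions came from genes with differing patterns over the 4 groups. SIX6, an eye field gene, was at 161 and 159 TPM in aNE_T and 0.0584 and 0.0239 TPM in aNE_M, and at 0.547 and 1.04 TPM in pNE_T, so its interaction of 6.45 ± 0.25 (adjusted p = 3.8e-09) rests on the fall in aNE. NELL1 fell in pNE but was at 4.41 and 4.05 TPM in aNE_M and 0.138 and 0 TPM in aNE_T (interaction -7.70 ± 0.24, adjusted p = 1.1e-09). SPX was only at 1.93 and 2.07 TPM in aNE_T (interaction -5.37 ± 0.34, adjusted p = 2.2e-07). ZNF503 was at 211 and 195 TPM in aNE_M and 1.59 and 1.09 TPM in aNE_T, while in pNE it was at 148 and 152 and 79.2 and 88.5 TPM and not called (interaction -5.62 ± 0.24, adjusted p = 7.9e-09). ATP8A1, a phospholipid flippase, rose to 22.6 and 31.6 TPM in aNE_M and fell to 0.621 and 0.758 TPM in pNE_M (interaction -5.34 ± 0.26, adjusted p = 2.4e-08). RARB did not exceed 0.78 TPM in aNE in either medium (interaction -3.68 ± 0.22, adjusted p = 1e-07). TAGLN fell in both origins, more so in aNE, from 3140.2 and 3369 to 107 and 93.2 TPM (interaction 2.64 ± 0.12, adjusted p = 1e-08).

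**Figure D5:**
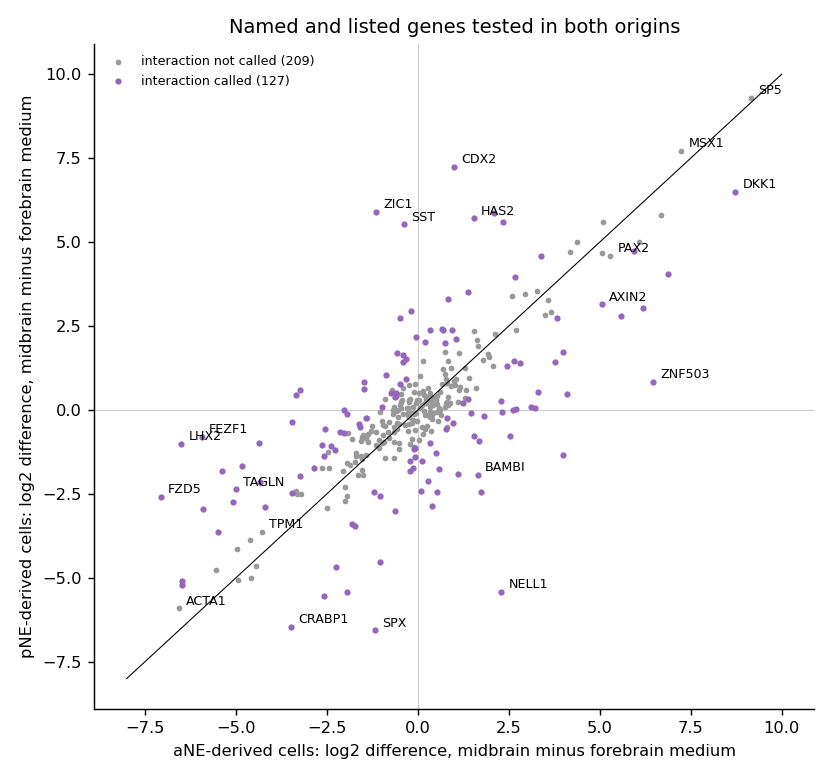
Log2 difference, midbrain minus forebrain medium, in aNE-derived cells (horizontal) and pNE-derived cells (vertical) for the 336 listed or named genes tested in both; the line marks equal differences, and purple points are the 127 genes whose interaction was called. SP5 and MSX1 lie near the line at its upper end, CDX2 and ZIC1 far above it, and NELL1 and SPX far below.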

How the data were processed

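RNA of 18 libraries was measured in 9 groups of 2; the 4 compared here are pNE_M and pNE_T, and 4 aNE libraries enter the interaction. The authors deposited TPM values, 1 row per gene and 1 column per library, each column summing to 1000000. The submitters' processing notes name bcl2fastq, FastQC, Trim Galore, kallisto, deepTools and hg38, without versions or roles; annotation and strand are not given in the sources used here. TPM keeps no read number; sequencing depth is therefore unknown, and counting intervals were not computed. Of the rows, 7898 had no gene symbol.

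Values were tested as log2(TPM + 1), for genes reaching 1 TPM in 2 or more of the libraries compared, with limma 3.58.1 in R 4.3.3: 1 mean per group over all 18 libraries, variance moderated with a trend on level, and p-values adjusted over all genes tested (Benjamini-Hochberg). Tested on simulated data with 14442 genes, the fit recovered 100 of 100 changed genes at a log2 size of 1.5 and 100 of 100 at 3, and called 1 unchanged gene. The noise was normal, and the changed genes were drawn from those with at least 5 TPM in all 4 libraries compared. Recovery of genes near 0 TPM in 1 group was therefore not tested. The named genes are all genes of the lists, the 15 largest rises and falls among called genes with a symbol, at least 5 TPM in the higher group and groups that do not overlap (67.9% of tested genes do not overlap), and the 6 largest interactions in each direction; 6 further interactions (AXIN2, DKK1, APCDD1, BAMBI, RARB and TAGLN) were chosen after their values were seen. The comparison and the lists were chosen with earlier results of these data known. Other pseudocounts, filters, scalings, fits, thresholds, a replicate block and leaving out each library were tried. Replicate numbers do not pair the samples. Promoter windows came from RefSeq (250 bases before the start searched), coordinates from GENCODE 29. Some genes of the lists are counted but not reported by name here.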

Additional observations from a re-analysis of the deposited data

Results flagged for a closer look

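The response to midbrain medium differed between the 2 origins by a test of the difference itself, the interaction in limma, for 1295 of the 15510 genes tested (8.35%). Origin and plating density changed together, so they cannot be told apart here. The values below are log2 interactions, positive where the difference between media was the more positive in pNE-derived cells. Among caudal and dorsal genes, the interaction was 7.04 for ZIC1, 6.93 for HOXB6, 6.69 for HOXB9 and 6.27 for CDX2. The eye field gene SIX6 had 6.45 and the somatostatin gene SST 5.91. In the other direction stood NELL1 at -7.70, the isthmus genes EN1 at -7.08 and PAX5 at -5.61, ZNF503 at -5.62, SPX at -5.37 and ATP8A1 at -5.34. Of the 15 listed WNT targets, 4 had a called negative interaction and 2 a called positive one. The 4 negative ones were chosen for naming after their values were seen, and the 2 positive ones are not named here. APCDD1 at -2.84, DKK1 at -2.22 and AXIN2 at -1.91 rose more in aNE-derived cells, and BAMBI was at -3.57. RARB was at -3.68, and TAGLN, which fell more in aNE-derived cells, was at 2.64. The groups hold 2 libraries each, too few to test for a single deviating library.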

How the results depend on the processing

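The 1457 calls became 727 (260 higher, 467 lower) with a pseudocount of 5, 4939 (2231 higher, 2708 lower) by adjusted p alone and 380 (157 higher, 223 lower) at an absolute log2 difference of at least 2; the interaction's 1295 calls became 693, 2235 and 401. Leaving out 1 library gave 1426 to 1491 calls, 535 to 587 higher and 850 to 924 lower, and 1121 to 1206 interactions; a lone sample is then assumed to vary like the other groups. Same-numbered libraries did not deviate together (correlations between -0.14 and 0.12 over 36 group pairs, -0.0166 for the groups compared); with the replicate block 1457 genes were called (561 higher, 896 lower; 1447 shared) and 1277 interactions. Other counts stayed within 1.5 times. The higher share of calls was 38.4%, between 35.8% and 45.2% over the alternatives. Of 186 called named genes under 15 alternatives (2765 values), none reversed and 135 values fell below the threshold, 79 of them at the doubled fold threshold and 38 with a pseudocount of 5; the 12 interactions named by rule kept their call in all 228 values. In the plot of the lists, the medians of the midbrain, WNT ligand, FGF, hedgehog, BMP, mesoderm, pluripotency, guidance and cholesterol lists went to 0 or changed sign under at least 1 alternative. Depth is unknown, and levels near 0 TPM carry most uncertainty.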
